A study of Mus musculus with 15 samples.

Results

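The CpGs described here are the autosomal positions of a mouse sperm methylation list that have no listed neighbour. They were taken as rows on chromosomes 1 to 19 whose window of 1000 bp held 1 or 2 listed rows and that had no other listed row within 1000 bp on either side. This gave 29880 isolated CpGs of 202627 autosomal and 204492 listed positions, or 14.7% of the autosomal ones. With the distance rule applied to both sides, every member was alone in its window. Letting 2 rows of the same window stand close together, with the distance rule kept towards rows of other windows, gave 66198 CpGs, which were used as an alternative set. The 172747 remaining autosomal CpGs are the set they are compared with.

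DNA from sperm of G1 generation C57BL/6 males was cut with MspI, an enzyme that recognises CCGG, and size-selected fragments were sequenced after bisulfite conversion, an assay known as reduced representation bisulfite sequencing. The 8 protein restricted and 7 control libraries are told apart by diet alone, and both diets share the strain, sex, tissue and generation. Whether the sampled males or their parents ate the diet is not in the labels, nor is any shared mouse, litter or batch. Apart from those of the quasi-binomial test of single CpGs, the p-values below measure no more than the spread between libraries. That test never takes the error as smaller than that of counting reads, so where libraries spread less its p-value rests on counting error. Summed over listed CpGs, a library held 6650912 to 10712016 read counts in the protein restricted group and 7846118 to 11841657 in the control group. No cell type marker could be checked, since no expression was measured.

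Mouse sperm DNA is methylated at most CpGs outside CpG islands, while islands at gene starts are largely unmethylated. CpGs are rare and clustered in the mouse genome, because methylated cytosines are lost by deamination. They are sparser in most intergenic and intronic DNA than in CpG islands. MspI fragments favour CpG-rich places. "Isolated" refers to the list and not to the genome, as the sequences show: each of the 83 isolated CpGs in a promoter window (250 bases before to 50 after a gene start, RefSeq, GRCm38.p6) had at least 1 further, unlisted CpG in the same 300 bases. Those windows held 2 to 10 CpGs, with a mean of 4.80, against 8.04 for the windows around the 602 remaining CpGs in promoter windows and 12.6 over all 31363 windows. Below are 122 bases around the 4 isolated promoter CpGs of lowest and the 4 of highest methylation that had 60 bases on either side upstream of the gene start. They are shown because most hold neighbouring CpGs that are not on the list. The strand is that of the gene, the listed CpG is in capitals, and the sequences are those of RefSeq, GRCm38.p6.

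Gm51769, chr10:67790515-67790636, minus strand: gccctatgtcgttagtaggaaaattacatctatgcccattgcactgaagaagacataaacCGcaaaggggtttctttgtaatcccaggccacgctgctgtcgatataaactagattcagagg

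Gm30448, chr9:114853721-114853842, minus strand: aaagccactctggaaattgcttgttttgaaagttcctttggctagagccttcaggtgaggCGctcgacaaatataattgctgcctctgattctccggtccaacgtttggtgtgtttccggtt

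Gm39468, chr11:113786005-113786126, plus strand: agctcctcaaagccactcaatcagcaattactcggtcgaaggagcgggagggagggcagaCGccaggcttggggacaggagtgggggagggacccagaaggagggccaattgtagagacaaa

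Gm12130, chr11:38520157-38520278, minus strand: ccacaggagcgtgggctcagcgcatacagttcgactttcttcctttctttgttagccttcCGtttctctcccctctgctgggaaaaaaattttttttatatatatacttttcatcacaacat

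Gm46418, chr13:56382490-56382611, plus strand: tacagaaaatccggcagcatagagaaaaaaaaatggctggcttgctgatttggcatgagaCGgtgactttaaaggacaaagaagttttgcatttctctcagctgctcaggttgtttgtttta

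Myoz2, chr3:123035109-123035230, minus strand: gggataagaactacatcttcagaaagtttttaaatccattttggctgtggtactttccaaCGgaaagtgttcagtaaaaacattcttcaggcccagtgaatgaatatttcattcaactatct

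Gm5833, chr1:138682144-138682265, minus strand: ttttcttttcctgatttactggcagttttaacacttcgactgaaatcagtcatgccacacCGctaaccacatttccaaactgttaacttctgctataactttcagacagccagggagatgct

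Gm34777, chr10:99232861-99232982, plus strand: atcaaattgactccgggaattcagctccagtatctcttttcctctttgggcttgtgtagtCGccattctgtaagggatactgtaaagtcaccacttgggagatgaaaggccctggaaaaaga

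The first 4 sequences held 4 or 5 CpGs each and the last 4 held 1 or 2. The listed CpG was in no case inside a CCGG, the site of MspI, which was searched as CCGG, a sequence that reads the same on both strands. CCGG stood in the windows of 59 of the 83 isolated promoter CpGs (71.1%), of 83.4% of the remaining promoter CpGs and in 53.5% of all promoter windows. In the whole set of 83, 1 isolated CpG was itself part of a CCGG, and the median distance to the nearest CCGG within the window was 58 bases. These are descriptions of letters in fixed windows. Whether isolated CpGs elsewhere lie at CCGG was not analysed here.

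At the CpG 187 bases upstream of Gm51769, the protein restricted libraries gave 33.8% at the lowest, 37.3% at the median and 51.0% at the highest, and the control libraries 30.2%, 34.0% and 42.2%. The groups overlapped, and the means were 39.5 ± 6.06% in protein restricted sperm and 35.4 ± 4.63% in control sperm (SD, n = 8 and 7). At Gm12130, 173 bases upstream, protein restricted libraries lay between 41.9 and 59.5% and control libraries between 31.4 and 58.1%. Gm30448 averaged 47.0 ± 8.70% in protein restricted and 45.9 ± 7.88% in control sperm, and Gm39468 averaged 48.3 ± 6.43% and 48.7 ± 7.55%. At the other end, Myoz2, which encodes a protein of the muscle Z-disc, averaged 99.6 ± 1.18% in protein restricted and 99.5 ± 1.45% in control sperm, 183 bases upstream of its start. Sites near full methylation and sites near the middle of the scale both occurred among isolated promoter CpGs, in either diet.

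Among listed positions, isolated CpGs were highly methylated, and slightly less so than the remaining CpGs. Any CpG for which a library gave fewer than 11 methylated reads was absent from the list. Levels in both classes are therefore high in part by selection. A CpG can also count as isolated because a neighbour of low methylation was unlisted. How much of the class difference follows from this was not tested. The mean over CpGs was 94.4 ± 0.0781% per library for isolated and 95.5 ± 0.125% for remaining CpGs (SD, n = 15 libraries). The difference was -1.09 percentage points, between -1.19 and -0.949 in single libraries, and isolated CpGs were lower in 15 of 15 (exact two-sided sign-flip permutation test, p = 6.1e-05, the smallest this test can give; adjusted p = 8.1e-05 over 8 tests). The median CpG stood at 97.9% among isolated CpGs and 99.3% among remaining CpGs, as a mean over libraries. In single libraries the median of remaining CpGs ran from 98.2 to 100%. It was 100% wherever most remaining CpGs were read as fully methylated, so its mean depends on that share. With each CpG first averaged over libraries, the medians were closer, at 98.001% for isolated and 98.213% for remaining CpGs. In a single library, 44.0 ± 3.71% of isolated CpGs and 50.04 ± 3.43% of remaining CpGs were read as fully methylated, a difference of -6.01 points. CpGs under 80% made up 7.66 ± 0.134% of the isolated and 5.39 ± 0.199% of the remaining CpGs, a difference of 2.27 points. Both shares differed in the same direction in 15 of 15 libraries (exact sign-flip permutation test, p = 6.1e-05 each, adjusted p = 8.1e-05).

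**Figure D1:**
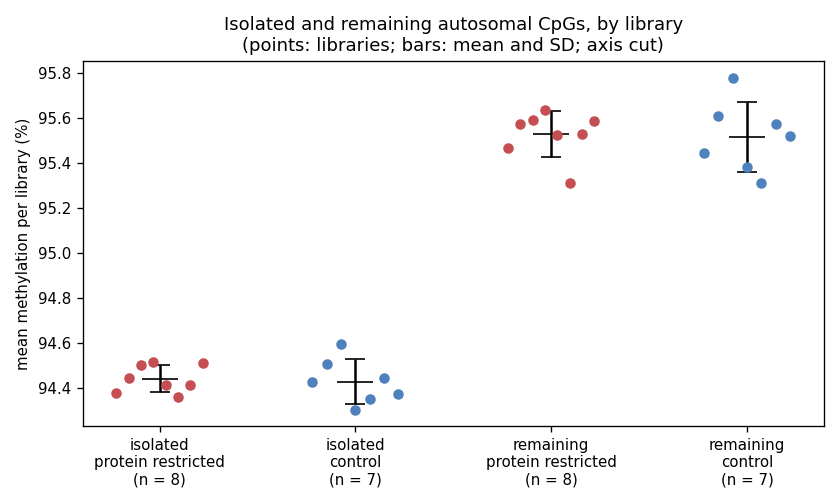
Mean methylation per library in percent for isolated and remaining autosomal CpGs, protein restricted (n = 8) and control (n = 7), with the vertical axis cut above 94%. Each point is a library and the bars are the mean and SD; every isolated mean lies between 94.3 and 94.6%, below every remaining mean, which lie between 95.3 and 95.8%.

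The distribution of levels showed where the classes parted. Of the isolated CpGs, 49.7% lay between 98% and full methylation, against 55.9% of the remaining CpGs. The isolated class held more of every range from 20 to 98%, with 1.32% against 0.845% of CpGs between 20 and 50%, and 6.18% against 4.29% between 50 and 80%. Below 20% there were 5 isolated CpGs, or 0.0167%, against 0.0469% of the remaining CpGs. At the top, 90 isolated CpGs (0.301%) and 755 remaining CpGs (0.437%) were at 100% in each of the 15 libraries.

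Depth moved with the class and with the level. The median depth of isolated CpGs, averaged over libraries, was 35.3 reads, against 31.9 reads for remaining CpGs, a log2 ratio of 0.14 ± 0.0431 that was positive in 15 of 15 libraries (exact sign-flip permutation test, p = 6.1e-05). Each listed position had at least 11 methylated reads in every library, so a CpG of low methylation can be on the list only where it was read deeply. At a mean depth up to 25 reads, isolated CpGs averaged 96.9% and remaining CpGs 97.5%, and no CpG of either class had a mean under 50%. Between 40 and 60 reads they averaged 93.2% and 94.3%. Between 60 and 100 reads the order turned, with 90.7% in isolated and 90.2% in remaining CpGs, and above 100 reads it was 64.4% over 40 isolated CpGs and 50.1% over 898 remaining CpGs. With remaining CpGs weighted by bins of depth to the isolated ones, the class difference was -0.466 points. The difference in the share at 100% was then -2.99 points and that in the share under 80% was 1.01 points. The deepest bin had no upper limit, so remaining CpGs far deeper than the isolated ones counted in it. These values therefore do not give the class difference at equal depth. Without remaining CpGs deeper than 200 reads, and with no weights, the class difference was -1.27 points. With windows of 2 rows kept in the isolated set, the class difference was -0.524 points and that in the share under 80% was 1.13 points.

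Weighting each CpG by its reads turned the class differences round. The mean was then 10.7 points higher in isolated than in remaining CpGs, the share at 100% was 3.15 points higher and the share under 80% was 16.5 points lower. Reads are unevenly spread among the remaining CpGs: the 898 CpGs above 100 reads, 0.520% of that class, held 21.3% of its counts, and the deepest had a mean depth of 155236 reads. Among isolated CpGs, the 40 above 100 reads held 0.522% of the counts, and the deepest had 706. In a read-weighted mean of the remaining class, few positions thus carry 21.3% of the weight.

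**Figure D2:**
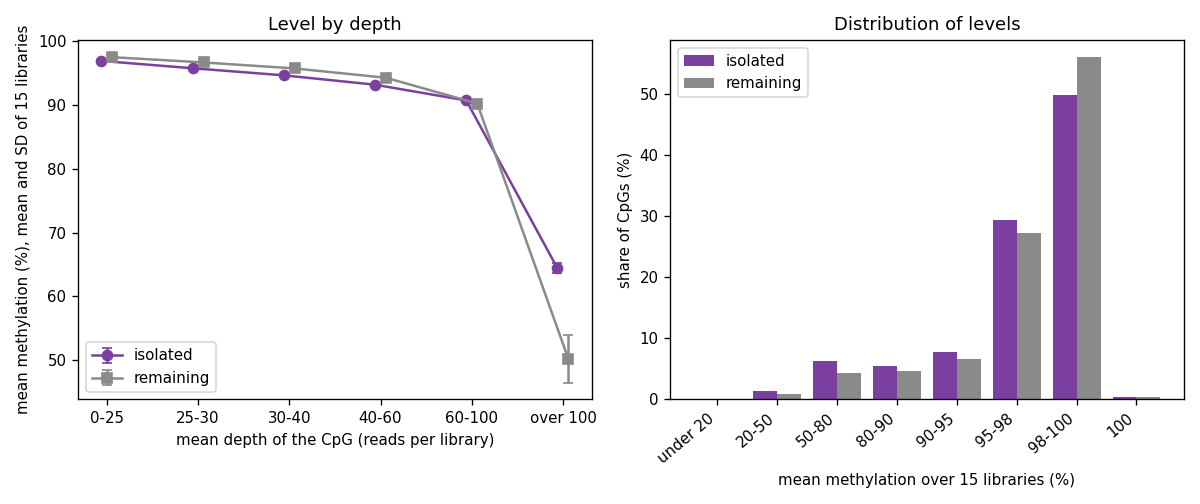
Left, mean methylation in percent against the mean depth of a CpG in reads per library, for isolated and remaining autosomal CpGs (mean and SD of 15 libraries); isolated CpGs are lower up to 60 reads and higher above. Right, share of CpGs in percent by mean methylation over 15 libraries; 49.7% of isolated and 55.9% of remaining CpGs lie between 98 and 100%.

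Among isolated CpGs, methylation was lowest where the nearest listed CpG was farthest. The 2583 isolated CpGs with a neighbour 1 to 2 kb away averaged 95.1 ± 0.0953% in protein restricted and 95.2 ± 0.167% in control sperm. The 6035 CpGs with a neighbour at 20 to 50 kb averaged 94.2 ± 0.0577% and 94.2 ± 0.0755%, the 1775 CpGs at 50 to 100 kb averaged 93.1 ± 0.138% and 93.0 ± 0.142%, and the 443 CpGs beyond 100 kb averaged 91.3 ± 0.217% and 91.2 ± 0.235%, with protein restricted sperm first in each pair. The fall was not steady. Over all libraries, CpGs at 2 to 5 kb averaged 94.5%, those at 5 to 10 kb 94.8% and those at 10 to 20 kb 94.6%. The difference between the farthest and the nearest bin was -3.90 ± 0.277 points and was negative in 15 of 15 libraries. The share under 80% was 14.4% beyond 100 kb and 5.77% at 1 to 2 kb.

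Gene content and depth moved with spacing too. Gene spans held 31.2% of the isolated CpGs beyond 100 kb and 60.6% of those at 1 to 2 kb, and the median depth was 39.3 and 34.1 reads. Within gene spans the difference between the same bins was -2.75 ± 0.374 points and outside them -3.71 ± 0.401 points, lower in 15 of 15 libraries in both cases. From 2 to 5 kb to 20 to 50 kb, the mean went from 95.2 to 95.4% inside gene spans and from 93.5 to 93.0% outside. No value at matched depth was computed for these bins, so the part of depth was not tested. Distances run to listed CpGs only, and the part of unlisted neighbours in them was not tested either.

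Set beside all autosomal CpGs, the isolated class was not one end of a straight line. CpGs with 1 other listed CpG within 1000 bp averaged 95.5%, those with 2 or 3 averaged 95.9%, those with 4 to 9 averaged 95.7%, and the 7779 CpGs with 10 or more averaged 91.3 ± 0.580%. Isolated CpGs, at 94.4%, were 1.05 points below the CpGs with exactly 1 neighbour, a comparison chosen after the values were seen. At the edge of the rule, the 319 isolated CpGs whose neighbour lay up to 100 bp beyond the limit averaged 94.1%, and the 282 CpGs left out because their nearest neighbour lay in the last 100 bp within it averaged 95.5%.

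**Figure D3:**
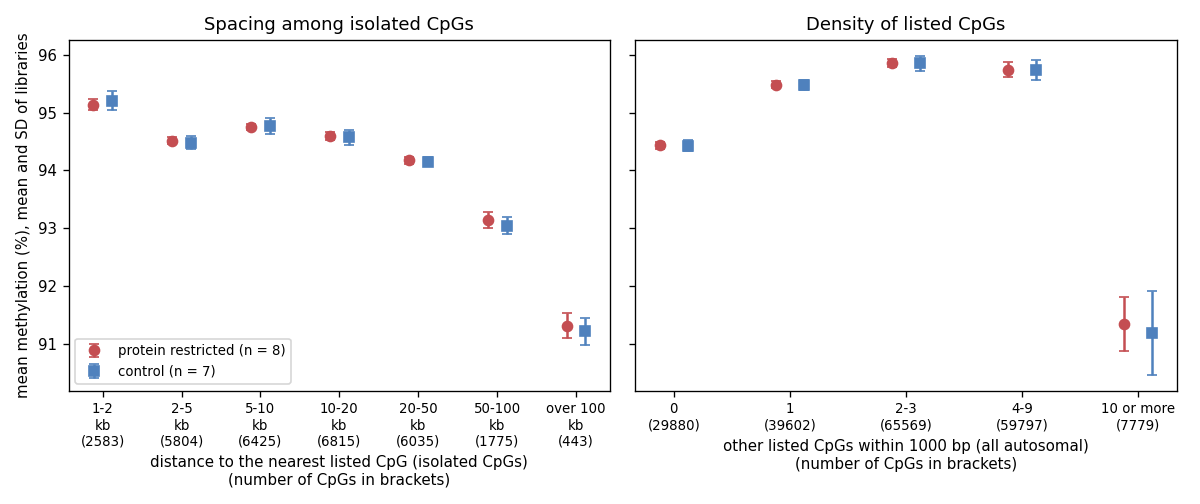
Mean methylation in percent (mean and SD of protein restricted, n = 8, and control libraries, n = 7) by distance to the nearest listed CpG among isolated CpGs (left) and by the number of other listed CpGs within 1000 bp among all autosomal CpGs (right), with the number of CpGs in brackets and the vertical axis cut. Beyond 100 kb the mean is 91.3% in protein restricted and 91.2% in control sperm, and both diets follow the same course.

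Isolated CpGs were less often in genes than the remaining CpGs, and those in genes were more methylated. Gene spans of RefSeq held 16057 isolated CpGs (53.7%) in 8387 genes, against 63.3% of the remaining CpGs. Inside gene spans isolated CpGs averaged 95.4 ± 0.0815%, and outside 93.4 ± 0.0930%, a difference of 2.01 points that was positive in 15 of 15 libraries (exact sign-flip permutation test, p = 6.1e-05, adjusted p = 8.1e-05). Remaining CpGs differed likewise, with 96.3% inside and 94.2% outside gene spans, a difference of 2.13 ± 0.0673 points, so this was not particular to isolated CpGs. The 13480 isolated CpGs in protein-coding genes averaged 95.7%, the 2217 in genes of long non-coding RNAs 94.4%, and the 271 in pseudogenes 90.02 ± 0.291%. The class difference between isolated and remaining CpGs was -0.941 points within gene spans and -0.817 points outside them, values added after the data were seen. The gene table gives spans without exons, so exonic, intronic and UTR positions were not analysed here.

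Isolated CpGs in promoter windows were less methylated than other isolated CpGs, in a comparison added after the data were seen. The 83 isolated CpGs in such a window averaged 87.4 ± 0.537% per library, against 94.5 ± 0.0771% for all other isolated CpGs, a difference of -7.10 points, lower in 15 of 15 libraries (exact sign-flip permutation test, p = 6.1e-05, adjusted p = 8.1e-05). Their median was 97.4%, so the mean reflected a minority: 18 of 83 (21.7%) were under 80%, against 7.81% of the 602 remaining CpGs in promoter windows, which averaged 94.4%. The size of the difference moved with the set, to -14.5 points at a coverage minimum of 20 reads, -10.6 points weighted by reads and -3.98 points with windows of 2 rows kept. The p-value takes libraries as units, so it holds for these 83 CpGs as a fixed set and not for promoter CpGs at large. Protein restricted and control libraries averaged 87.4 ± 0.413% and 87.3 ± 0.687% over the 83 CpGs.

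Genes with more isolated CpGs had longer spans. Of the 8387 genes, 5252 had 1 isolated CpG (median span 28.7 kb), 2564 had 2 to 4 (88.3 kb) and 571 had 5 or more (387 kb), the last holding 4436 isolated CpGs. The genes with the highest counts, picked after the counts were seen, were Auts2 with 30, the Igk and Tenm3 loci with 25 each and Ptprd with 23. Auts2, a gene of neurodevelopment, averaged 97.3% over its 30 CpGs, and Sox5, an HMG-box transcription factor gene, 97.8% over 21, with no CpG under 95.2%. Tenm3, a teneurin of synaptic adhesion, averaged 93.4% over 25 CpGs that ranged from 39.1 to 99.5%.

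The immunoglobulin loci stood below these genes. The 18 isolated CpGs in the span of Igh, the heavy chain locus, averaged 76.2% and ranged from 44.1 to 99.4%. Their mean was 74.9% in protein restricted and 77.6% in control sperm, a difference of -2.73 points for which no test was run. The 25 isolated CpGs of Igk, the kappa light chain locus, averaged 91.0% in protein restricted and 89.8% in control sperm. The 2 differences had opposite signs. Both loci hold families of related variable segments, and how reads were divided among copies is not known.

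The isolated CpGs of lowest methylation were few and deeply read. The lowest lay at chr6:47748391, 590 bp outside the span of Gm52861, and protein restricted libraries gave 2.95% at the lowest, 3.58% at the median and 4.005% at the highest, against 2.79%, 2.96% and 4.73% in control libraries. Its mean depth of 706 reads was also the highest of all isolated CpGs. The nearest listed CpG, chr6:47750026, was 1635 bp away and was itself isolated, with 5.70 ± 0.873% in protein restricted and 6.71 ± 1.44% in control sperm at 363 reads. No other isolated CpG had a mean under 10%. The third in depth, chr18:3005482, had 323 reads and averaged 53.0 ± 5.51% in protein restricted and 53.7 ± 3.86% in control sperm.

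Of the next 4 in level, 3 lay in gene spans. Foxp2, a forkhead transcription factor gene, had an isolated CpG at chr6:14948487 with 18.9 ± 4.79% in protein restricted and 16.7 ± 2.48% in control sperm. Trpm8, the gene of the cold- and menthol-sensing ion channel, had one at chr1:88307245 with 18.5 ± 2.80% and 18.4 ± 2.23%, read at a mean depth of 239. Dmrt3, a DM-domain transcription factor gene, stood at 19.3 ± 3.66% in protein restricted and 19.8 ± 3.74% in control sperm at chr19:25611842. A CpG at chr13:21881554, 479 bp from the transfer RNA gene n-TIaat10, averaged 20.9% in both diets. At all 6 of these CpGs the 2 diets overlapped.

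The 4 most remote isolated CpGs differed in level. The most remote isolated CpG, chr3:110646675, was 388323 bp from any other listed position and averaged 98.2 ± 2.93% in protein restricted and 98.7 ± 1.86% in control sperm. The second, in Gm26650, was 384615 bp from a listed CpG and averaged 93.6 ± 7.68% and 96.0 ± 4.24%. The third most remote, chr1:27450391, was 354189 bp away and averaged 88.0 ± 5.77% in protein restricted libraries (78.1 to 96.8%) and 80.8 ± 10.8% in control libraries (65.9 to 90.8%). An isolated CpG in Tcra, the T cell receptor alpha locus, was 302860 bp from its neighbour and averaged 94.4% and 94.6%. None of the 4 most remote CpGs had an unadjusted p under 0.05 between diets.

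Diet did not move the mean of the isolated class by more than the spread between libraries. Protein restricted libraries lay between 94.36 and 94.51% with a median of 94.43%, and control libraries between 94.30 and 94.60% with a median of 94.43%, so the groups overlapped throughout. The means were 94.4 ± 0.0608% in protein restricted and 94.4 ± 0.0990% in control sperm (SD, n = 8 and 7). The difference was 0.0130 points (95% interval -0.0787 to 0.102; exact two-sided permutation test over 6435 splits, p = 0.768, adjusted p = 0.877), and it was -0.00799 without control replicate 4. The distance between isolated and remaining CpGs was -1.0867 ± 0.0586 points in protein restricted and -1.0892 ± 0.0781 points in control sperm, a difference of 0.00246 points (95% interval -0.0732 to 0.0795; exact permutation test, p = 0.947). By chromosome, the isolated mean was lowest on chromosome 7 (93.5%) and highest on chromosome 11 (95.2%), and the diet difference ran from -0.0968 points on chromosome 16 to 0.0955 points on chromosome 14.

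No single isolated CpG passed an adjusted p of 0.05 between diets in a quasi-binomial F test over all 204492 listed CpGs, where 0% were called. At an unadjusted p under 0.05 there were 1106 isolated CpGs (3.70%), against 3.79% of all listed CpGs, with 557 higher and 549 lower in protein restricted sperm. These were 1.86% and 1.84% of isolated CpGs, and the whole list had 1.89% and 1.9%. Limma called 0 on percent methylation, where 1439 isolated CpGs had an unadjusted p under 0.05 (4.82%, against 4.56% of all listed CpGs), and 0 on log2 ratios of methylated to unmethylated reads, where 1474 did (4.93%, against 4.56% of all listed CpGs). A difference of at least 10 points was found at 50 isolated CpGs (0.167%, against 0.121% of all listed CpGs), 25 higher and 25 lower (0.0837% each, against 0.0597% and 0.0616% of all listed CpGs), and all 50 had a mean level under 90%. When the dispersion, the ratio of observed to binomial variance, was allowed below 1, 26 isolated CpGs were called (0.0870%, against 0.0949% of all listed CpGs), and 2162 had an unadjusted p under 0.05 (7.24%, against 7.83%).

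The smallest p among isolated CpGs belonged to chr12:18749770, 9335 bp from Gm9241. Protein restricted libraries gave 88.9% at the lowest, 93.2% at the median and 100% at the highest, and control libraries 65.5%, 78.9% and 89.3%. The ranges met between 88.9 and 89.3%, and the means were 93.4 ± 3.92% and 78.1 ± 9.65%, a difference of 15.3 points (quasi-binomial F test, p = 0.00139, adjusted p = 1). Its reads were few, between 12 and 29 per library, and single libraries carried Wilson intervals such as 47.3 to 80.1% for 19 methylated of 29 reads in control replicate 7. At chr7:48049240, 14379 bp from Mrgprb7-ps, protein restricted libraries ranged from 68.3 to 86.0% and control libraries from 54.1 to 74.3%, with means of 78.3 ± 6.60% and 66.1 ± 6.94% (quasi-binomial F test, p = 0.00242, adjusted p = 1).

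The lower direction had 2 intergenic CpGs of similar size. At chr7:23709986, 6703 bp from Vmn1r173, a vomeronasal receptor gene, protein restricted libraries ranged from 45.3 to 65.6% with a median of 58.6%, and control libraries from 62.5 to 81.4% with a median of 69.2%. The means were 56.7 ± 7.31% in protein restricted and 69.9 ± 6.64% in control sperm, and 8 of 8 protein restricted libraries lay below the control mean (difference -13.2 points, quasi-binomial F test, p = 0.00298, adjusted p = 1). At chr9:27210552, 55131 bp from Jam3, the means were 70.3 ± 6.37% and 83.0 ± 5.62%, with ranges of 62.2 to 79.6% and 76.6 to 92.5% that overlapped.

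Most other CpGs with small p-values were near the ceiling and differed by a few points. In the higher direction these included Tm9sf2, a gene of a membrane protein of the transmembrane 9 family, with 99.8 ± 0.544% in protein restricted and 94.4 ± 4.19% in control sperm. Alg9, a mannosyltransferase gene of N-glycan assembly, had 99.8 ± 0.536% and 98.1 ± 1.10%, and the long non-coding RNA genes Gm32545 and LOC115489886 differed by 3.03 and 2.36 points. In the lower direction, Clta, the gene of clathrin light chain A, had 96.3 ± 2.33% in protein restricted and 99.4 ± 1.02% in control sperm, Tmem178b had 95.5 ± 3.03% and 99.7 ± 0.900%, and Rundc3b had 98.4 ± 1.89% and 100% in each control library, as did Gm6117 with 97.7 ± 2.23% in protein restricted sperm. Intergenic CpGs at chr13:99022498, chr1:6294847 and chr19:30542525 were at 100% in 8 of 8 protein restricted libraries and differed from control by 3.90, 3.34 and 4.32 points, and one at chr14:48048219 was at 100% in 7 of 7 control libraries and differed by -3.34 points. At Dnah2, a gene of the axonemal dynein of cilia and the sperm tail, Gabbr2, a subunit gene of the GABA-B receptor, and Gm30075, the differences were -2.88, -2.69 and -5.06 points. None of the 20 CpGs named for small p-values passed the adjusted threshold, with an adjusted p of 1 for each.

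The share of isolated CpGs with an unadjusted p under 0.05 was highest for CpGs near full methylation. It was 2% of the 400 CpGs under 50%, 3.67% of the 899 between 70 and 80%, 2.79% of the 1613 between 80 and 90%, 2.93% of the 8772 between 95 and 98% and 4.47% of the 14946 between 98 and 100%. Above 98% a difference rests on whether a few reads were unmethylated, and its SD over CpGs was 1.04 points, against 3.49 points under 50%. Over all listed CpGs of any level the share with an unadjusted p under 0.05 was 3.79%, and their shares by level were not analysed here.

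**Figure D4:**
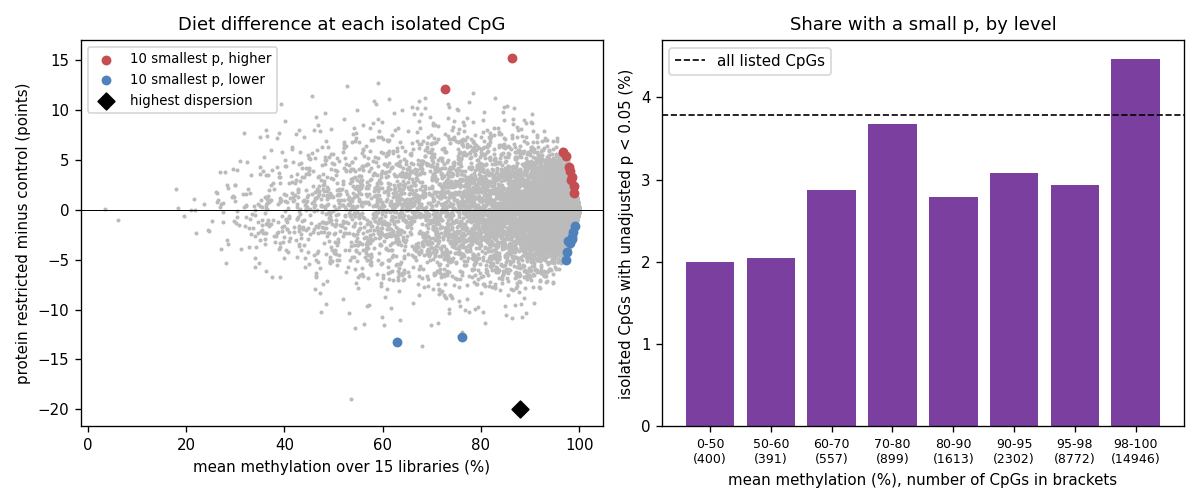
Left, protein restricted minus control methylation in percentage points against the mean level over 15 libraries, one point per isolated CpG, with the 10 smallest p-values in each direction and the CpG of highest dispersion marked. Right, share of isolated CpGs in percent with an unadjusted p under 0.05 by level, with the dashed line at the 3.79% of all listed CpGs; the share is 2% under 50% and 4.47% at 98 to 100%.

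At 5 isolated CpGs the 2 diets did not overlap, and those named were chosen after their values were seen. In 4 of them (0.0134%, against 0.0127% of all listed CpGs) each protein restricted library was above each control library, and in 1 (0.00335%, against 0.00636%) each was below. In 2700054A10Rik, at chr17:13548422, protein restricted libraries ranged from 57.0 to 69.0% and control libraries from 46.2 to 55.4%, with means of 63.7 ± 5.39% and 53.0 ± 3.30%. In Plcxd3, at chr15:4539377, the ranges were 94.1 to 98.4% and 88.3 to 93.4%. Foxp1, a forkhead transcription factor gene, and an intergenic CpG 1695 bp from Gm42339 differed by 2.61 and 5.81 points. The adjusted p was 1 at each of them in the quasi-binomial F test.

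The largest differences came with wide spreads between libraries of a diet. In Utrn, the gene of the dystrophin-like protein utrophin, protein restricted libraries ranged from 33.3 to 57.1% and control libraries from 47.6 to 86.7%, and the means of 44.6 ± 8.37% and 63.6 ± 12.9% differed by -18.9 points (quasi-binomial F test, p = 0.00821, adjusted p = 1). The difference at chr5:22600781, -20.0 points, came from 3 of the 8 protein restricted libraries. Replicates 1, 6 and 7 had 16 methylated of 37 reads (43.2%, Wilson interval 28.7 to 59.1%), 13 of 26 (50%, 32.1 to 67.9%) and 18 of 43 (41.9%, 28.4 to 56.7%). The other 5 protein restricted and all 7 control libraries lay between 96.6 and 100%. The group means of 78.6 ± 27.9% and 98.5 ± 1.58% describe no single protein restricted library (quasi-binomial F test, p = 0.0709, adjusted p = 1), and this CpG, 11104 bp from Gm42225, had the highest dispersion of all isolated CpGs, at 14.4.

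Apart from such sites, the median isolated CpG had a dispersion near 1, the ratio at which the variance equals that of read counting. The median dispersion around the diet means was 0.959 for isolated and 0.954 for remaining CpGs, and the median SD within a diet was 2.47 and 2.41 points. By level, the median was 1.08 for isolated and 1.19 for remaining CpGs between 20 and 80%. It was 1.05 for both between 80 and 95%, and 0.938 and 0.933 at 95% or more. A dispersion over 2 was found at 809 isolated CpGs (2.71%) and 2.84% of remaining CpGs. A dispersion over 3 was found at 75 isolated CpGs (0.251%) and 0.573% of remaining CpGs. With positions deeper than 200 reads left out of the remaining class, 2.58% of it had a dispersion over 2, below the isolated share, and 0.317% a dispersion over 3, above it. The order also differed by level, since a dispersion over 2 was found at 5.93% of isolated and 14.96% of remaining CpGs between 20 and 80%, deep positions included, and at 1.97% and 1.71% at 95% or more. These shares are descriptions over CpGs, which are not replicates, and no test was run on them.

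**Figure D5:**
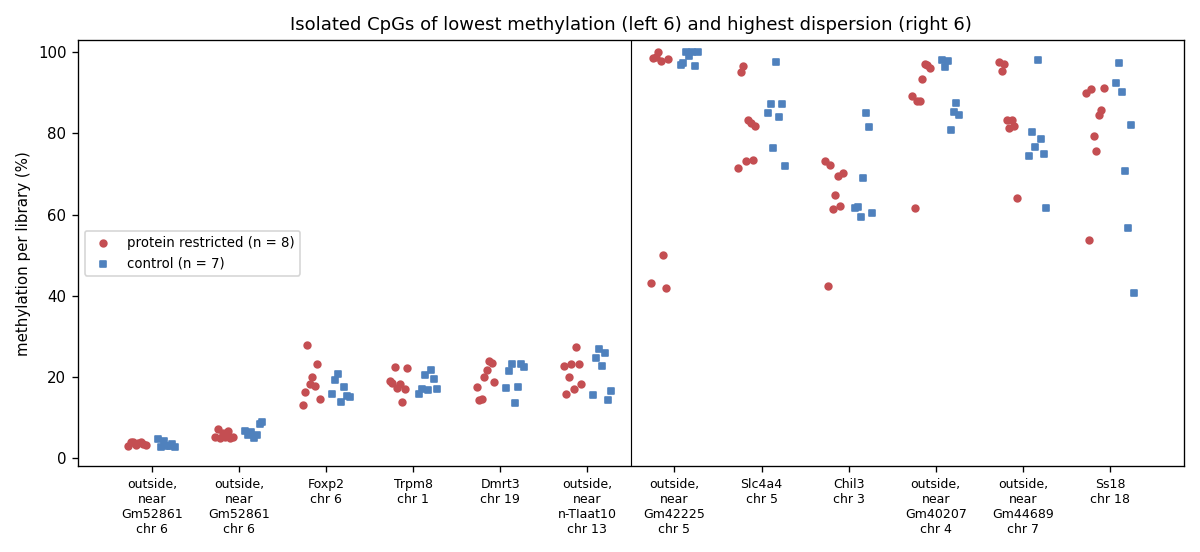
Methylation in percent in each protein restricted (n = 8) and control library (n = 7) at the 6 isolated CpGs of lowest methylation (left) and the 6 of highest dispersion (right), one point per library. The 6 lowest keep all libraries under 30%, while at the CpG near Gm42225 3 protein restricted libraries lie at or below 50% and all other libraries above 96%.

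At some CpGs of high dispersion the same 3 libraries stood apart together. Protein restricted replicates 2 and 3 and control replicate 4 had the highest total counts, at least 10675054 each, against at most 9333437 in the other 12. At 12 of the 75 isolated CpGs with a dispersion over 3 (16%), these 3 libraries lay together outside the range of the other 12, above it at 9 and below it at 3. The same held at 79 of 989 remaining CpGs of that kind (7.99%). With positions deeper than 200 reads left out, 546 remaining CpGs had a dispersion over 3. The 3 libraries were not counted among those alone, so the 2 shares come from sets of unlike depth. This trio was picked after the values were seen, and the part of depth in it was not tested. It spans both diets.

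In Slc4a4, the gene of a sodium bicarbonate cotransporter, the 3 libraries had 95.2%, 96.6% and 97.7%, and the other 12 had 71.4 to 87.4%. In Alms1, a gene of a centrosomal and basal body protein, they had 22.4%, 24.5% and 21.7%, and the other 12 had 43.1 to 62.2%. In Map1b, the gene of a microtubule-associated protein of neurons, they had 58.3%, 42.1% and 35.6%, against 59.0 to 82.4%. In Mgat5, the gene of an N-glycan branching enzyme, they had 91.4%, 82.2% and 89.4%, against 58.7 to 81.4%. Others were in Klf7, Sgcd, Anxa8, Pla2r1, Gm39840 and Mob3b and near Tvp23bos.

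A single library stood far from the rest at a small number of isolated CpGs. One library lay at least 20 points from all others at 17 isolated CpGs (0.0569%) and 0.0920% of remaining CpGs, and at least 30 points from all others at 0 isolated CpGs and 24 remaining CpGs (0.0139%). At the gap of 20 points, control replicate 3 alone was high at 2 of the 17 and at 34 remaining CpGs. Protein restricted replicate 2 alone was low at 33 remaining CpGs and at 6 of the 17. These 6 were in Foxj3 (51.5%, against 80.6 to 100% in the others), Adamts12 (57.9%, against 84.6 to 100%), Nrxn3 (48.7%, against 71.4 to 98.2%) and Nfia (60.9%, against 81.8 to 100%) and near Gm40903 and Stn1. Protein restricted replicate 2 was also the lowest of its diet in Chil3, a gene of a chitinase-like protein of macrophages, with 42.4%, where the other 7 lay between 61.5 and 73.1%. It was also the lowest in Ss18, a gene of the BAF chromatin remodelling complex, with 53.8%, although control libraries there went down to 40.7%. The labels give nothing that sets this library apart from the others of its diet.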

How the data were processed

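Sperm DNA in 8 protein restricted and 7 control libraries was analysed by reduced representation bisulfite sequencing. The authors deposited raw, unnormalized counts of methylated and of total reads at each CpG. The submitters' processing notes name Bismark 0.7.12, Bowtie2 2.1.0 and build mm10, without their roles. How reads were trimmed, positions filtered and strands merged was not given in the sources used here, and no library has fewer than 11 methylated reads at any listed CpG. Replicates were numbered in accession order and pair nothing.

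Percent methylation was computed as methylated over total counts. The distance rule and the window rule were applied together, and class means weight CpGs equally. Values with 1 number per library were compared by exact two-sided permutation over 6435 splits (diet) or by exact sign flips over 32768 arrangements (within library), with Benjamini-Hochberg adjustment over 8 tests, and intervals came from inverting the diet test. Each CpG was tested by a quasi-binomial model of the counts on diet, by an F test with 13 residual degrees of freedom and a dispersion no lower than 1, adjusted over all 204492 positions. Limma 3.58.1 (R 4.3.3) on percent and on log2 ratios with a pseudocount of 1 were alternatives, beside a coverage minimum of 20 reads, weights by depth, other isolation rules and each library left out. The tests were tried on simulated data. Python 3.11.15, numpy 2.4.6, scipy 1.17.1 and pandas 2.3.3 were used.

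The median isolated CpG had a mean depth of 34.9 reads, at which the 95% half-width of counting error at 50% is 16.6 points. Reads carry no molecular identifiers, so these widths and the Wilson intervals hold for counting error alone. Libraries were never identical, and the mean chi-square per isolated CpG was 1.04 to 1.11 over 105 pairs. Isolated CpGs were named by a rule: up to 10 in each direction by the smallest p where none passed, 1 per gene, then the 6 of lowest methylation, the 6 of highest dispersion, the 4 of highest depth and the 4 farthest from a neighbour. Gene spans and promoter sequences are those of RefSeq, GRCm38.p6, and 83 isolated CpGs matched a promoter window. The planned comparison at CCGG sites and the sequence around CpGs outside promoter windows were not analysed here. Some single CpGs are not reported here. Members, lists and tests were chosen with earlier results of these data known.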

Additional observations from a re-analysis of the deposited data

Results flagged for a closer look

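Within a diet, a library was set apart where its gap to the nearest other library was a large part of the range (Dixon's criterion at 95%). Of 90 groups examined, 12 were flagged. The nominal rate of 1 in 20 cannot be set against this count. Many groups were CpGs named for extreme values, and 1 library below full methylation is always flagged where all others are at 100%. Among values per library, protein restricted replicate 6, the shallowest library, had the smallest distance between isolated and remaining CpGs, -0.949 points, where the other 7 lay between -1.13 and -1.08. Control replicate 4, the deepest library, stood apart in the median depth of isolated CpGs (48 reads, the others 32 to 36), in their summed counts (1604159, the others 1036578 to 1171816) and in the share of isolated CpGs at 100% (35.5%, the others 43.5 to 47.4%).

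Among single CpGs, several flags were libraries just below full methylation where the others were at 100%. These were protein restricted replicate 4 at Tm9sf2 (98.5%), protein restricted replicate 3 at Gm32545 (98.5%), protein restricted replicate 5 at Alg9 (98.5%) and control replicate 7 at Tmem178b (97.6%). Control replicate 5 gave 86.7% at chr19:30542525, where the other control libraries were at 95.1 to 100%. Protein restricted replicate 2 was low at Chil3 (42.4%, the other protein restricted libraries 61.5 to 73.1%), at chr4:97231475 (61.7%, the others 87.9 to 97.1%) and at Ss18 (53.8%, the others 75.7 to 91.1%). What sets protein restricted replicate 2 apart at these 3 CpGs was not tested.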

How the results depend on the processing

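Over 828 alternatives to 48 results, 809 were counted as unchanged. This meant the same direction and side of the threshold, counts within 1.5 times, or little movement of the dispersion. For the mean level of a single CpG it meant a move smaller than its SD over libraries. Leaving out 1 of 15 libraries cannot move a mean that far, so those alternatives could not fail. Of the 809, 632 concerned single CpGs or counts at an unadjusted p under 0.05. Among the class results and the count of CpGs called, 177 alternatives were unchanged, 11 reversed in sign and 1 moved. The diet difference in the mean of isolated CpGs ran from -0.00799 to 0.0408 points with 1 library left out. The difference between diets in the distance of isolated from remaining CpGs ran from -0.0172 to 0.0240 points with 1 library left out, below 0 without control replicate 3, 6 or 7 or protein restricted replicate 6, and it was -0.00135 with windows of 2 rows kept, -0.00966 at a coverage minimum of 20 reads and -0.256 weighted by counts. All of these missed the threshold. Weighted by counts, the class differences were 10.7 points in level, 3.15 points in the share at 100% and -16.5 points in the share under 80%, all against the sign of the unweighted values. With no minimum for the dispersion, 26 isolated CpGs were called between diets (0.0870%, against 0.0949% of all listed CpGs) and 2162 had an unadjusted p under 0.05 (7.24%, against 7.83%); among the 26 were chr13:99022498 (adjusted p = 0.0109), LOC115489886 (0.0221), Gm30075 (0.0256) and chr1:6294847 (0.0280) by the quasi-binomial F test. The count at an unadjusted p under 0.05 was 2453 of the larger set with windows of 2 rows kept, 504 at a coverage minimum of 20 reads, which tests fewer CpGs, and 1050 to 1105 with 1 library left out. No paired analysis was possible because the labels give no replicate numbers. Depth limits the precision of single CpGs, and low methylation can be listed only at high depth.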
